A study of Mus musculus with 4 samples.

Results

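The transcription factors of the oligodendrocyte lineage were followed from precursors to myelinating cells and in interneurons of the same mouse brains. The members are Olig1, Olig2, Sox10, Sox8, Nkx2-2, Nkx6-2, Myrf, Zfp488, Tcf7l2 and St18. They were chosen by gene symbol, and 10 of 10 were found among the 43348 features of the 4 count matrices.

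The cells came from a study of the medial ganglionic eminence (MGE), the embryonic source of many cortical and hippocampal interneurons, in which Grin1 was deleted to ask what NMDA receptors do in interneuron maturation. Frontal cortex and hippocampus of juvenile mice at postnatal day 18 to 20 were dissociated with papain, and cells carrying TdTomato were sorted and sequenced as 10x 3′ single-cell RNA libraries. All mice carried Nkx2-1-Cre and the Cre-dependent Ai14 TdTomato reporter. WT mice were Grin1 wt/wt and null mice Grin1 fl/fl, littermates of both sexes. Tetrodotoxin, APV and Actinomycin-D were in the dissociation solutions of all groups, and several animals were pooled per replicate. Nkx2-1-Cre is active in MGE progenitors, whose descendants include oligodendroglia, so the floxed gene is open to recombination in these glia as well as in interneurons. WT cortex and WT hippocampus had 3 libraries each, null cortex and null hippocampus 2 each.

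Oligodendrocytes arise from precursor cells that divide, commit, exit the cell cycle and begin to wrap axons with myelin. Basic helix-loop-helix factors (Olig1, Olig2), SoxE factors (Sox10, Sox8) and homeodomain factors (Nkx2-2, Nkx6-2) set up and hold the lineage, and Myrf, Zfp488 and Tcf7l2 act as cells differentiate. Myrf is a membrane-tethered protein that cleaves itself and switches on myelin genes, and Tcf7l2 is a DNA-binding partner of beta-catenin in the Wnt pathway.

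Grin1, which encodes the obligatory NMDA receptor subunit, followed the genotype labels in interneurons. As CPM, its UMIs scaled to 1e+06 UMIs summed over the interneurons of a library, Grin1 was at 144, 239 and 212 in WT cortex and at 121, 164 and 145 in WT hippocampus. It was at 38.2 and 27.9 in null cortex and at 27.8 and 19.1 in null hippocampus. Every null library lay below every WT library, with log2 differences of −2.61 ± 0.34 (SE) in cortex (adjusted p = 0.0961, edgeR) and −2.62 ± 0.34 in hippocampus (adjusted p = 0.0907), 3 WT against 2 null libraries each. Both differences ranked as 1 of 13581 genes by p, yet neither passed an adjusted p of 0.01. In the oligodendroglial gates, Grin1 had 25, 28, 8 and 69 UMIs from the earliest to the latest gate, against 9832 in interneurons, so its loss could not be followed there.

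Depth differed between libraries. WT cortex libraries 1 to 3 held 9306756, 14212183 and 28057207 UMIs with medians of 7098, 2903 and 6519 UMIs per cell, and WT hippocampus libraries 1 to 3 held 10555408, 8782181 and 20639002 UMIs with medians of 4411, 1479 and 5741. Null cortex libraries 1 and 2 held 1488601 and 25688337 UMIs with medians of 6641 and 8224.5, and null hippocampus libraries 1 and 2 held 3856745 and 47338167 UMIs with medians of 8839 and 9508. WT hippocampus 2 was the shallowest library per cell, and null cortex 1 was the smallest, with 181 cells.

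Cells were placed along the lineage by 1 marker each: Pdgfra, the growth factor receptor of precursors; Gpr17, an orphan receptor of committed precursors; Enpp6, a choline phosphodiesterase of newly forming oligodendrocytes; and Mog, a protein of mature myelin. A cell with a UMI of any of these, and none of genes of neurons, astrocytes, microglia, endothelium or fibroblasts, went to the gate of the marker with most UMIs. Of 26201 cells that passed the cell filter, 638 were in the Pdgfra gate, 1344 in the Gpr17 gate, 967 in the Enpp6 gate and 7089 in the Mog gate, and 9633 were interneurons by Gad1 and Gad2. The gates were not pure stages: Gpr17 was detected in 34.3% of cells of the Pdgfra gate and in 67.5% of the Enpp6 gate, and Enpp6 in 35.0% of the Mog gate. The median depth rose along the gates, from 1669.5 UMIs per cell in the Pdgfra gate to 2557.5, 4613 and 5351, and was 7787 in interneurons.

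The gates carried the markers of the stages they stand for. The sorting reporter, a feature named Tomato that was looked at after other values were seen, was at medians of 893, 569, 416 and 174 CPM over libraries from the Pdgfra to the Mog gate. All 5 matched precursor markers reached 20 CPM in the Pdgfra gate (Ptprz1 at 2529 CPM was the most abundant, and the list summed to between 3007 and 7640 CPM over libraries), all 6 markers of committed precursors did so in the Gpr17 gate (Fyn 3095 CPM), all 6 of newly formed oligodendrocytes in the Enpp6 gate (Bcas1 3292 CPM) and all 9 of mature oligodendrocytes in the Mog gate. These lists were not confined to 1 gate: precursor markers also all reached 20 CPM in the Gpr17 gate, those of committed precursors in the Enpp6 gate (Fyn 2486 CPM), and newly formed markers in the Gpr17 gate, where Bcas1 was higher (3622 CPM), and in the Mog gate. Cycling genes were confined mostly to the Pdgfra gate, where 3 of 3 reached 20 CPM, led by Top2a at 479 CPM, against 1 of 3 in the Gpr17 gate and 0 of 3 in the Enpp6 and Mog gates. Markers of glutamatergic neurons, endothelial and mural cells and fibroblasts stayed under 20 CPM in each oligodendroglial gate, and 1 of 6 microglial markers reached it in the Pdgfra gate, where 4 of 6 were at 0. Of 6 astrocyte markers, 3 reached 20 CPM in the Pdgfra gate, with Slc1a2 at 140 CPM, 2 at 0 and a sum between 196 and 839 CPM, against 1 of 6 in each later gate. Of 8 interneuron markers, 4, 5, 2 and 2 reached 20 CPM from the Pdgfra to the Mog gate, and they summed to between 218 and 794 CPM in the Pdgfra gate and between 58.2 and 236 in the Mog gate. The part of these markers in the levels of the members was not tested. Interneurons held 8 of 8 of their own markers, with Sst at 9501 CPM.

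Some libraries stood apart before any comparison. WT hippocampus 2 had the lowest Olig1 of all libraries in each oligodendroglial gate and the highest Tcf7l2 and St18 in the Gpr17, Enpp6 and Mog gates, and its mature markers summed to 74008 CPM in the Mog gate against a median of 131116 over the 10 libraries. Null cortex 1 had at least 10 cells only in the Mog and interneuron gates, and null hippocampus 1 had none such in the Pdgfra gate, so sums were made in 8, 9, 9, 10 and 10 libraries from the Pdgfra gate to interneurons. Without WT hippocampus 2, 4 members were higher and 4 lower from Gpr17 to Enpp6, and 3 higher and 4 lower from Enpp6 to Mog; with it, these counts were 4 and 3, and 3 and 4. Libraries shared few cell barcodes: 95 barcodes occurred in more than 1 library, at most 12 between any pair, and 22 of 45 pairs shared at least 1.

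The members did not move in 1 direction at any step of the lineage. From the Pdgfra to the Gpr17 gate Nkx2-2, Myrf and Tcf7l2 rose and Olig1 fell, where 22.8% of the 9329 genes tested passed (11.0% higher and 11.8% lower). Nkx6-2, Zfp488 and St18 passed as higher too. With 1, 20 and 2 UMIs in the Pdgfra gate they entered the model through the later gates. No count of members that rose is therefore drawn from this step. From the Gpr17 to the Enpp6 gate 4 rose and 3 fell, against 21.6% of genes (9.84% higher and 11.8% lower). From the Enpp6 to the Mog gate 3 rose and 4 fell, against 44.6% of genes (24.9% higher and 19.7% lower). A change passed at an adjusted p under 0.01 over all genes and a change of 0.1 or more on the natural-log scale, in an edgeR model with each library as its own block. The median log2 differences over all genes tested were −0.01, −0.07 and 0.10. The filter on low counts for this model was passed by 10 members, and in the fit of the Pdgfra gate alone by 7.

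**Figure D1:**
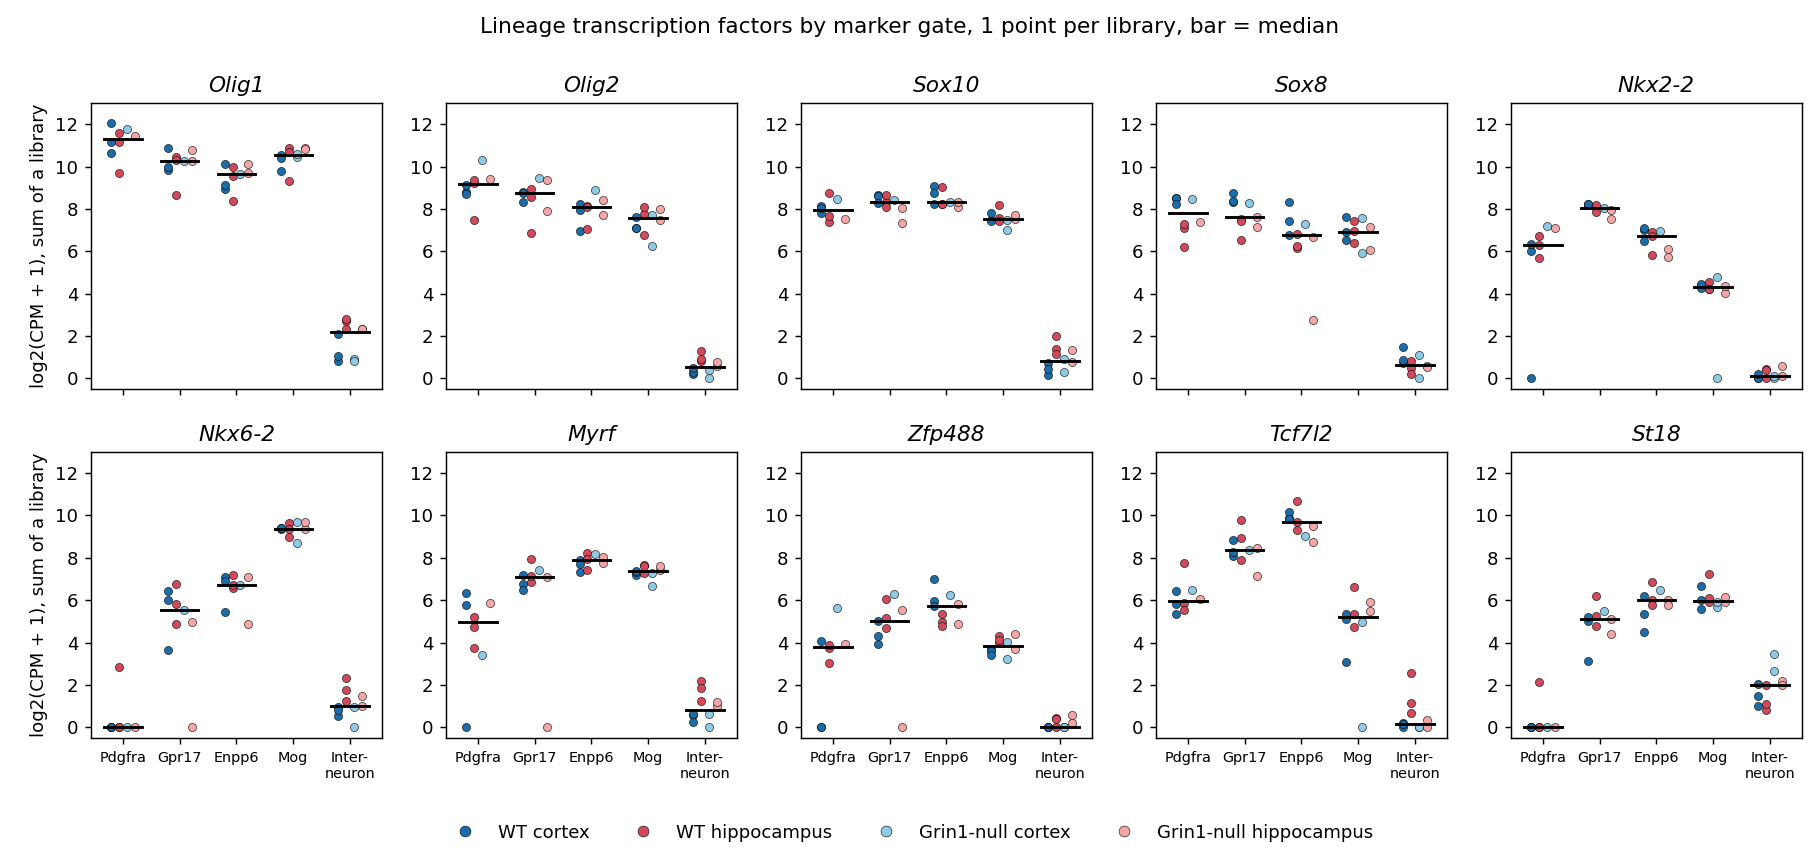
Level of each member by gate, as log2(CPM + 1) of UMIs summed per library, 1 panel per gene; points are libraries coloured by group and bars are the median over libraries. Olig1 and Olig2 start high in the Pdgfra gate, Nkx2-2 peaks in the Gpr17 gate and Tcf7l2 in the Enpp6 gate, and Nkx6-2 is highest in the Mog gate. The median of interneurons lies below each oligodendroglial gate for 8 of the 10, and above the Pdgfra gate for Nkx6-2 and St18.

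Olig1 and Olig2, neighbouring basic helix-loop-helix genes, were already high in precursors. Olig1 (ENSMUSG00000046160.6, chr16:91269772-91271933, + strand, GRCm38) lies 41095 bases downstream of Olig2 (ENSMUSG00000039830.8, chr16:91225457-91228677, + strand). Olig1 ranged from 839 to 4193 CPM (median 2560) in the 8 Pdgfra libraries and from 405 to 1897 (median 1233) in the 9 Gpr17 libraries. It lay between 329 and 1111 CPM (median 800) in the 9 Enpp6 libraries and between 628 and 1884 (median 1506) in the 10 Mog libraries. The course was a dip and a return: Olig1 was lower in the Gpr17 than in the Pdgfra gate in 8 of 8 libraries and higher in the Mog than in the Enpp6 gate in 9 of 9, and its highest gate was Pdgfra in all 8 libraries that had the 4 gates. It fell by 0.98 on the log2 scale (SE 0.16, 8 libraries, adjusted p = 3.43e-06) at the Pdgfra to Gpr17 step and rose by 1.35 ± 0.16 (SE, 9 libraries, adjusted p = 2.08e-10) at the Enpp6 to Mog step. Between these, from Gpr17 to Enpp6, the difference of −0.51 ± 0.16 (adjusted p = 0.0128) was in the same direction in 9 of 9 libraries and did not pass; it passed without WT hippocampus 2 (−0.53), with scaling by library size alone (−0.67) with cells thinned to equal depth (−0.81), in exclusive gates, where only 1 of the 4 markers is detected (−1.09), and without the filter on low counts (−0.49). The fall from Pdgfra to Gpr17 no longer passed without library blocks (−0.92) or without the exclusion genes in the gates (−0.90).

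Olig2, which specifies the lineage from ventral progenitors, declined more gently and did not return. Olig2 ranged from 178 to 1265 CPM (median 572) in the Pdgfra gate and from 114 to 708 (median 435) in the Gpr17 gate. It lay between 122 and 468 CPM (median 274) in the Enpp6 gate and between 76.0 and 267 (median 187) in the Mog gate. Null cortex 2 was highest and WT hippocampus 2 lowest in the Pdgfra and Gpr17 gates, and the gates' ranges overlapped at each step. Olig2 fell by 0.50 on the log2 scale (SE 0.14, adjusted p = 0.00479) from Gpr17 to Enpp6, in 8 of 9 libraries. It did not pass without WT cortex 1 (−0.47), WT cortex 2 (−0.43), WT cortex 3 (−0.46), WT hippocampus 3 (−0.48) or null hippocampus 2 (−0.43), in WT libraries alone (−0.50), without library blocks (−0.52), without exclusion genes (−0.46) or in exclusive gates (−0.87). The differences at the other steps were −0.36 ± 0.15 (Pdgfra to Gpr17, adjusted p = 0.0557) and −0.04 ± 0.14 (Enpp6 to Mog, adjusted p = 0.848). Scaling by library size alone moved the median of all genes at the 3 steps from −0.01, −0.07 and 0.10 to −0.13, −0.22 and −0.26, and under it Olig2 passed as lower at the Pdgfra to Gpr17 step (−0.49) and at the Enpp6 to Mog step (−0.42); with DESeq2 it passed at the Pdgfra to Gpr17 step as well (−0.54).

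Sox10 and Sox8, high-mobility-group factors of the SoxE group, were present at each stage. Sox10 (ENSMUSG00000033006.9, chr15:79154908-79165240, − strand), which binds myelin gene enhancers, ranged from 165 to 435 CPM (median 244) in the Pdgfra gate and from 161 to 402 (median 315) in the Gpr17 gate. It lay between 268 and 538 CPM (median 321) in the Enpp6 gate and between 127 and 287 (median 181) in the Mog gate. The Enpp6 gate was the highest in 5 of 8 libraries, the Gpr17 gate in 2 and the Pdgfra gate in 1, so the order of the first 3 gates was not fixed. Sox10 fell by 0.46 (SE 0.13, adjusted p = 0.00220) from Enpp6 to Mog, in 9 of 9 libraries. The fall did not pass without WT cortex 3 (−0.40) or WT hippocampus 3 (−0.41), nor in WT libraries alone (−0.49), without library blocks (−0.52), without exclusion genes (−0.49), without the filter on low counts (−0.39), with thinned cells (−0.42) or in exclusive gates (−0.39). The differences before it were 0.45 ± 0.16 (adjusted p = 0.0270) and 0.32 ± 0.14 (adjusted p = 0.0734). The difference from Pdgfra to Gpr17 passed without WT hippocampus 2 (0.59), null cortex 2 (0.56) or null hippocampus 1 (0.53), with a stricter cell filter (0.59) and without the filter on low counts (0.62).

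Sox8 (ENSMUSG00000024176.6, chr17:25565892-25570686, − strand), a related factor that acts beside Sox10, dipped at the Enpp6 gate. It ranged from 71.8 to 365 CPM (median 234) in the Pdgfra gate and from 90.7 to 424 (median 196) in the Gpr17 gate. It lay between 5.70 and 318 CPM (median 109) in the Enpp6 gate and between 59.1 and 193 (median 121) in the Mog gate. Null hippocampus 1 was the lowest in the Enpp6 gate. Within libraries the order was clearer: Sox8 was lower in the Enpp6 than in the Gpr17 gate in 9 of 9 libraries (−0.89 ± 0.17, adjusted p = 3.43e-05) and higher in the Mog than in the Enpp6 gate in 7 of 9 (0.69 ± 0.16, adjusted p = 0.000191). Without library blocks neither passed (−0.92 and 0.57), and the rise to Mog also did not pass with scaling by library size (0.31) or in WT libraries alone (0.60). From Pdgfra to Gpr17 the difference was 0.24 ± 0.18 (adjusted p = 0.324).

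Nkx2-2 and Nkx6-2, homeodomain factors, took turns along the lineage. Nkx2-2 (ENSMUSG00000027434.11, chr2:147177546-147194243, − strand), a repressor downstream of Sonic hedgehog, ranged from 0 to 145 CPM (median 78.3) in the Pdgfra gate, from 181 to 298 (median 263) in the Gpr17 gate, from 51.3 to 135 (median 105) in the Enpp6 gate and from 0 to 26.5 (median 18.9) in the Mog gate. Its ranges did not overlap between neighbouring gates at any of the 3 steps, and Gpr17 was its highest gate in 8 of 8 libraries. The libraries at 0 were WT cortex 1 in the Pdgfra gate (15 cells) and null cortex 1 in the Mog gate (18 cells). Nkx2-2 rose by 1.67 ± 0.18 (adjusted p = 2.20e-10) from Pdgfra to Gpr17, then fell by 1.44 (SE 0.15, adjusted p = 1.83e-10) and by 1.75 (SE 0.16, adjusted p = 9.84e-14). It moved in these directions in 8 of 8, 9 of 9 and 9 of 9 libraries, and each change passed in each alternative that could be fitted and without each library in turn.

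Nkx6-2 (ENSMUSG00000041309.13, chr7:139579376-139582797, − strand), a factor of mature oligodendrocytes, climbed to the last gate. It had 1 UMI in the whole Pdgfra gate, in WT hippocampus 2 (6.13 CPM), and ranged from 0 to 108 CPM (median 45.7) in the Gpr17 gate. It lay between 28.5 and 144 CPM (median 106) in the Enpp6 gate and between 414 and 827 (median 666) in the Mog gate. The Mog range was separate from the Enpp6 range, and Mog was its highest gate in 8 of 8 libraries. Pooled over libraries, the level in the Gpr17 gate was 65.0 times that in the Pdgfra gate, with a 95% counting interval from 11.5 to 2581 on 196 against 1 UMIs. The fitted difference of 5.93 ± 0.85 depends on the prior count. It gives the size only, since Nkx6-2 entered the model through the later gates. It was 9.91 without WT hippocampus 2, 4.54 with DESeq2, 4.96 without exclusion genes, 4.35 in thinned cells and 4.24 in exclusive gates. Nkx6-2 rose further by 1.36 ± 0.24 (adjusted p = 7.37e-06) from Gpr17 to Enpp6, in 8 of 9 libraries, and by 3.12 ± 0.18 (adjusted p = 1.27e-20) from Enpp6 to Mog, in 9 of 9. With cells thinned to 1000 UMIs the middle rise was 0.98 and did not pass, and in exclusive gates it was 2.23.

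Myrf and Zfp488 act as cells leave the precursor state. Both were higher in the Gpr17 than in the Pdgfra gate in 8 of 8 libraries, which for Zfp488 is a description only. Myrf (ENSMUSG00000036098.11, chr19:10208272-10240748, − strand) ranged from 0 to 79.9 CPM (median 30.8) in the Pdgfra gate and from 0 to 247 (median 134) in the Gpr17 gate. It lay between 159 and 301 CPM (median 234) in the Enpp6 gate and between 101 and 199 (median 164) in the Mog gate. WT cortex 3 was the library at 0 in the Pdgfra gate and null hippocampus 1, with 12 cells, the library at 0 in the Gpr17 gate. Myrf rose by 2.42 ± 0.31 (adjusted p = 1.03e-08, 8 of 8 libraries) and by a further 0.89 ± 0.18 (adjusted p = 9.54e-05, 9 of 9 libraries). The Enpp6 gate was its highest in 7 of 8 libraries, and the difference from Enpp6 to Mog was −0.02 ± 0.16 (adjusted p = 0.934). Its CPM was nevertheless lower in the Mog than in the Enpp6 gate in 8 of 9 libraries, the pooled ratio was 0.757 (0.711 to 0.806), and with library size scaling the difference was −0.40 (adjusted p = 0.0291), which did not pass; that scaling moved the median of all genes from 0.10 to −0.26. The rise to the Enpp6 gate did not pass without library blocks (0.90) or in thinned cells (0.58), and the rise to the Gpr17 gate was 1.70 in exclusive gates.

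Zfp488 (ENSMUSG00000044519.8, chr14:33967070-33978764, − strand), a zinc finger repressor that works with Olig2, ranged from 0 to 48.3 CPM (median 13) in the Pdgfra gate and from 0 to 78.0 (median 31.9) in the Gpr17 gate. It lay between 26.8 and 128 CPM (median 52.4) in the Enpp6 gate and between 8.44 and 20.2 (median 13.5) in the Mog gate. All 10 Mog libraries lay below all 9 Enpp6 libraries. From Pdgfra to Gpr17 the fitted difference of Zfp488 was 1.45 ± 0.39, with 8 of 8 libraries higher. This value gives the size only, since Zfp488 entered the model through the later gates. From Enpp6 to Mog Zfp488 fell by 1.18 (SE 0.21, adjusted p = 4.81e-06, 9 of 9 libraries). The difference between them was 0.31 ± 0.24 (adjusted p = 0.353), and the peak lay in the Enpp6 gate in 5 of 8 libraries and in the Gpr17 gate in 3. The early difference was 1.20 without WT hippocampus 1, 1.25 with DESeq2 and 1.24 in exclusive gates. The late fall did not pass in exclusive gates (−0.80).

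Tcf7l2 peaked in the Enpp6 gate. Tcf7l2 (ENSMUSG00000024985.14, chr19:55741820-55933654, + strand, overlapping the annotated Ppnr on the same strand) ranged from 39.9 to 214 CPM (median 61.3) in the Pdgfra gate and from 141 to 893 (median 333) in the Gpr17 gate. It lay between 427 and 1639 CPM (median 833) in the Enpp6 gate and between 0 and 97.4 (median 36.4) in the Mog gate. WT hippocampus 2 was the highest library in all 4 gates, and null cortex 1 was at 0 in the Mog gate on 18 cells. Enpp6 was the peak in 8 of 8 libraries, and no Mog library reached an Enpp6 library. Tcf7l2 rose by 2.49 ± 0.29 (adjusted p = 8.49e-10) and by 1.25 ± 0.20 (adjusted p = 1.47e-06), then fell by 3.99 (SE 0.21, adjusted p = 1.51e-22), in 8 of 8, 9 of 9 and 9 of 9 libraries. The second rise did not pass without library blocks (1.23), and the fall was −5.26 in exclusive gates.

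St18 (ENSMUSG00000033740.13, chr1:6487231-6860940, + strand), a zinc finger factor of the Myt1 family, appeared after the Pdgfra gate and stayed. It had 2 UMIs in the Pdgfra gate, both in WT hippocampus 3, and ranged from 7.63 to 72.6 CPM (median 33.6) in the Gpr17 gate. It lay between 21.3 and 115 CPM (median 62.7) in the Enpp6 gate and between 46.8 and 149 (median 61.7) in the Mog gate. The Mog gate was its highest in 6 of 8 libraries and the Enpp6 gate in 2, so these neighbours overlapped. The pooled level in the Gpr17 gate was 24.5 times that in the Pdgfra gate, with a 95% counting interval from 6.68 to 205 on 148 against 2 UMIs. The fitted difference was 4.61 ± 0.84. It gives the size only, since St18 entered the model through the later gates. It was 9.67 without WT hippocampus 3, 3.80 with DESeq2, 3.36 without exclusion genes and 4.15 in exclusive gates. St18 rose by 1.01 ± 0.27 (adjusted p = 0.00323, 8 of 9 libraries) from Gpr17 to Enpp6, a call that was lost without WT hippocampus 3 (0.96), with DESeq2 (1.0), with library size scaling (0.87), without library blocks (1.01), in WT libraries alone (1.0) and in exclusive gates (1.68). From Enpp6 to Mog the difference was 0.62 ± 0.21 (adjusted p = 0.0121), and it passed without null cortex 1 (0.67) or null cortex 2 (0.67).

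**Figure D2:**
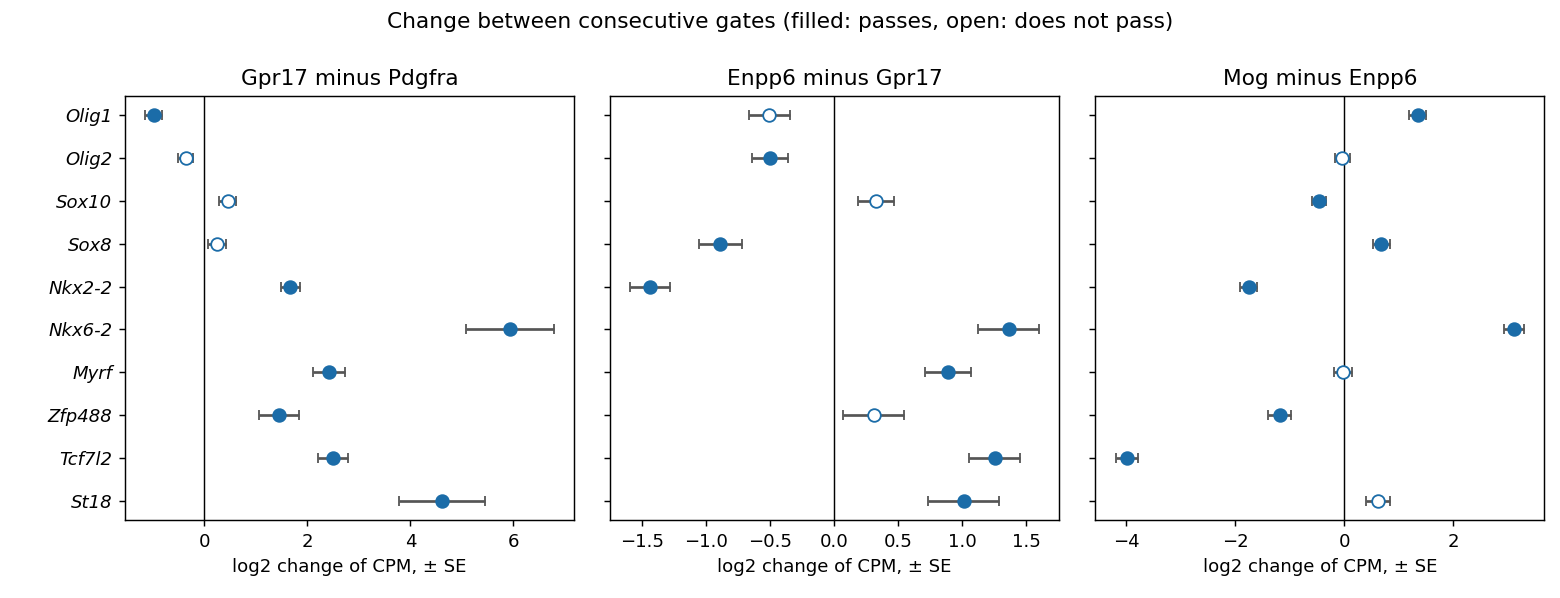
Log2 difference of each member at the 3 steps between neighbouring gates, with its standard error, from the edgeR model with library blocks; filled points passed the threshold and open points did not, and the horizontal scale differs between panels. Tcf7l2 rises by 2.49 and 1.25 and is then lower (−3.99), while Nkx6-2 rises at each step.

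Other regulators and targets of the lineage, from fixed lists, gave a frame for these values. Over all genes 22.8%, 21.6% and 44.6% passed at the 3 steps, and a listed gene that is present in few gates was tested only if it was high in one, so the counts below describe the lists and test none of them. Of 16 precursor regulators 12 were tested (Hes1, Id4, Tead1 and Klf15 were not), and from Pdgfra to Gpr17 2 rose, 7 fell and 3 did not pass, with a median log2 difference of −1.52. Sox9 (−3.49) and Hes5 (−3.42), which keep progenitors immature, fell, while Sox4 (1.10) and Sox2 (0.60) rose. At the next steps 7 and 6 of the 12 fell, 0 and 1 rose, and the medians were −1.24 and −2.10; Sox6 (−5.14), Sox5 (−3.54) and Sox11 (−3.34) fell from Enpp6 to Mog, and Nfib (0.94) rose. The 16 myelin genes, all tested, ran the other way: 10, 11 and 14 rose at the 3 steps and 0 fell, with medians of 2.80, 1.4 and 2.13. Mag (5.12) led from Pdgfra to Gpr17, Mbp (2.1) and Cldn11 (1.99) from Gpr17 to Enpp6, and Mal (7.70) and Opalin (6.98) from Enpp6 to Mog.

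Of 20 listed regulators of differentiation 19 were tested (Zfp24 was not), and 4, 4 and 5 rose and 3, 2 and 3 fell at the 3 steps, together 7, 6 and 8 of 19 beside 22.8%, 21.6% and 44.6% of all genes, with medians of 0.11, 0.01 and 0.21. Sirt2, a deacetylase of myelin, rose early (3.35, then 0.86) and fell at the last step (−1.07), and Klf9, a thyroid hormone target, rose by 1.16 and 1.30 and then fell (−0.62). Creb5 fell first (−1.96) and rose last (3.04), as did Nfix (−1.05, −1.67 and then 2.32).

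The Wnt list around Tcf7l2 had 8 of 16 genes tested (Apcdd1, Lef1, Tcf7, Notum, Rnf43, Znrf3, Lrp5 and Fzd1 were not), of which 0, 1 and 2 rose and 1, 2 and 4 fell at the 3 steps, together 1, 3 and 6 of 8 beside the same shares of all genes, with medians of 0.03, −0.32 and −0.13. Tcf7l1, a relative of Tcf7l2, rose with it from Gpr17 to Enpp6 (1.57) and fell with it from Enpp6 to Mog (−2.50), as did the feedback inhibitor Axin2 at the last step (−2.41). Nkd1, another inhibitor of the pathway, fell at the first steps (−1.39 and −1.14) and rose at the last (4.18).

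Of 15 Shh and Bmp genes 7 were tested (Smo, Gli1, Gli2, Gli3, Boc, Bmpr1b, Id1 and Id3 were not); 2, 1 and 3 rose and 1, 2 and 1 fell, with medians of 0.53, 0.11 and 0.57. Bmp4, a ligand made by committed precursors, rose by 4.46 and then fell (−0.79 and −5.20), while Smad7, an inhibitor of Bmp signals, rose at each step (2.53, 1.68 and 1.17).

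The share of cells with a UMI was taken as counted and at equal depth. Olig1 was detected in 85.1%, 80.1%, 78.2% and 86.9% of cells from the Pdgfra to the Mog gate, and in 85.6%, 61.6%, 43.7% and 66.9% after cells were thinned to 1000 UMIs. Thinning left out the cells under 1000 UMIs, 132 of 638, 167 of 1344, 56 of 967 and 531 of 7089, so the 2 kinds of share rest on different sets of cells. Tcf7l2 was detected in 13.9%, 54.5%, 87.8% and 10.2% of cells (8.30%, 29.9%, 52.3% and 3.19% thinned), and Nkx6-2 in 0.157%, 8.04%, 30.4% and 82.6% (0%, 3.14%, 9.55% and 49.7% thinned). Nkx2-2 was detected in 16.5%, 46.1%, 24.7% and 10.0% (6.32%, 22.9%, 8.34% and 1.97% thinned). The peaks of Nkx2-2 and Tcf7l2 thus lay in the same gates at equal depth. Olig2 was detected in 57.4%, 56.6%, 59.5% and 48.5%, an even course that became a decline when thinned (44.7%, 33.2%, 24.7% and 15.8%).

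Sox10 was detected in 38.1%, 56.2%, 75.1% and 58.1% of cells (22.1%, 26.8%, 30.6% and 18.7% thinned) and Sox8 in 30.7%, 40.1%, 33.1% and 44.2% (18.4%, 20.1%, 10.5% and 13.1% thinned). Myrf was detected in 5.96%, 31.5%, 57.3% and 53.2% (2.96%, 13.4%, 19.8% and 16.1% thinned), and Zfp488 in 3.13%, 11.0%, 19.9% and 8.28% (1.78%, 3.82%, 4.94% and 1.46% thinned). St18 was detected in 0.313%, 9.45%, 25.5% and 30% (0.395%, 2.29%, 5.60% and 7.69% thinned). Interneurons held a UMI of Olig1 in 2.13% of cells, St18 in 1.73%, Nkx6-2 in 1.06% and the other members in 0.0727% to 0.716%, at a median of 7787 UMIs. In 183 cells with the microglial Csf1r, at a median of 1347 UMIs, Olig1 was detected in 1.09% and Olig2 in 0 cells. The shares of Nkx6-2 and St18 in the Pdgfra gate were below those in interneurons as counted, and at equal depth 0% against 0.172% for Nkx6-2 and 0.395% against 0.301% for St18.

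Single cells usually held several members at once. At least 1 member was detected in 93.1%, 97.6%, 98.6% and 97.3% of cells from the Pdgfra to the Mog gate, with medians of 2, 4, 5 and 4 members per cell. Of interneurons, 7.12% held a UMI of any member, with a median of 0.

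The members were set against interneurons of the same libraries by the mean of the 4 oligodendroglial gates, a comparison in which 78.6% of the 9329 genes passed (34.6% higher and 43.9% lower). Olig2, Sox8, Nkx2-2, Zfp488 and Tcf7l2 did not pass the filter on low counts in interneurons alone, so they entered through the gates where they are high and had to differ; their values give the size only. The log2 difference between the mean of the 4 gates and interneurons was 9.35 ± 0.20 (SE, 10 libraries) for Olig2, 8.97 for Olig1, 8.93 for Nkx2-2, 8.64 for Tcf7l2, 8.54 for Sox10, 7.77 for Sox8, 7.63 for Zfp488 and 6.85 for Myrf. Nkx6-2 (5.01 ± 1.33, adjusted p = 0.000602) and St18 (2.65 ± 0.77, adjusted p = 0.00149) had wider errors, since the Pdgfra gate enters the mean, and each rested on 1 library: Nkx6-2 was at 4.23 without WT hippocampus 2 and St18 at 1.45 without WT hippocampus 3, neither of which passed, and St18 did not pass in exclusive gates (2.51). The median over all genes was −0.13. The sizes depended on the cells admitted: in gates without exclusion genes the members other than St18 lay between 3.61 (Nkx6-2) and 7.02 (Olig2), and in thinned cells Olig1 was at 7.79, Nkx2-2 at 7.55, Olig2 at 7.45, Sox8 at 6.81, Sox10 at 6.17, Tcf7l2 at 5.82 and Nkx6-2 at 4.07. Tcf7l2 was at 9.34 without WT hippocampus 2 and at 7.98 in exclusive gates, and St18 was at 3.39 in WT libraries alone.

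What interneurons held of the members was small. The 211 Olig1 UMIs in 9633 interneurons came to 0.775 to 5.93 CPM per library (median 3.61), the 43 of Olig2 to 0 to 1.48 and the 102 of Nkx6-2 to 0 to 4.08, with WT hippocampus 2 at the top of each. Whether these UMIs were made in the interneurons or came from other cells was not tested.

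St18 in interneurons was concentrated in few cells. Its 313 UMIs lay in 167 cells, and 198 of them, 63.3%, lay in 125 interneurons with at least 2 UMIs of Crabp1, a retinoic acid binding protein gene that was chosen after its values were seen. In these cells St18 was pooled at 120 CPM, against 1.31 CPM in interneurons without a Crabp1 UMI (106 UMIs in 81 cells). St18 was at 1.78, 0.997 and 3.13 CPM in WT cortex and at 5.21 and 10.1 in null cortex; it was at 0.788, 1.11 and 2.96 in WT hippocampus and at 3.48 and 3.04 in null hippocampus. The null libraries were the higher ones in each region without overlap, as groups were for 15.0% of all genes in cortex and 16.5% in hippocampus. Null cortex 1 held 6 St18 UMIs and null hippocampus 1 held 7. The nearest hippocampal libraries were null 2 at 3.04 CPM (2.34 to 3.88) and WT 3 at 2.96 (1.81 to 4.57), whose counting intervals overlap. Neither difference of St18 passed. Crabp1 cells were 1.07%, 0.767% and 1.34% of interneurons in WT cortex and 3.23% (4 cells) and 6.86% (66 cells) in null cortex. Without them St18 was at 0.817, 0.112 and 0.309 CPM in WT cortex and 2.65 and 1.19 in null cortex. In hippocampus Crabp1 cells were 0%, 0% and 0.142% of WT and 0% and 0.266% of null interneurons, and St18 without them was at 0.788, 1.11 and 2.97 CPM in WT and 3.48 and 2.57 in null libraries.

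By interneuron class, St18 had 10 UMIs in 3928 cells rich in Sst (0.277 CPM), 102 UMIs in 1830 Pvalb cells (5.24 CPM) and 37 UMIs in 999 Lamp5 cells (3.66 CPM). Of the 102 in Pvalb cells, 76 came from null cortex 2, at 22.8 CPM. No member passed the filter on low counts for Pvalb against Sst or Lamp5 against Sst cells, so 0 of 10 were tested, where 38.4% and 31.7% of 8995 genes passed. Without that filter St18 passed in both (3.56 and 3.43).

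Between the regions of WT mice, 0 members passed in any gate with edgeR, and few genes of any kind did. In the Pdgfra gate 0 of 5124 genes passed (269 at an unadjusted p under 0.05, 4 by DESeq2), in the Gpr17 gate 0 of 8441 (276 and 0), in the Enpp6 gate 1 of 6779, or 0.0148% (179 and 1), in the Mog gate 1 of 10323, or 0.00969% (202 and 3), and in interneurons 48 of 13581, or 0.353% (0.287% higher and 0.0663% lower in hippocampus; 1123 and 199). With the replicate block, in which libraries of the same replicate number are compared, 15, 27, 11, 6 and 97 genes passed in these gates, and of members again 0. The replicate number goes with the 10x chemistry, since replicate 1 was made with v2 and the others with v3 kits. Across genes, which are not independent replicates, the deviation of a WT cortical library from the mean of its region correlated with that of the same-numbered hippocampal library at r between −0.02 and 0.30 in the Pdgfra gate (7090 genes), between 0.47 and 0.89 in the Mog gate (5397 genes) and between 0.45 and 0.80 in interneurons (6699 genes).

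Sox8 had the lowest p between regions of any member in the oligodendroglial gates. In the Pdgfra gate Sox8 was at 359, 365 and 302 CPM in WT cortex and at 71.8, 135 and 155 in WT hippocampus. In the Gpr17 gate it was at 319, 424 and 336 in cortex and at 90.7, 185 and 173 in hippocampus. Every cortical WT library lay above every hippocampal one in both gates, where groups did not overlap for 12.2% of all genes in the Pdgfra gate (1 of 7 members tested) and for 9.56% in the Gpr17 gate (1 of 10 members). Null libraries fell on the same sides, with null cortex 2 at 357 and null hippocampus 2 at 167 in the Pdgfra gate, and 314 against 141 and 196 in the Gpr17 gate. The log2 differences, hippocampus minus cortex, were −1.20 ± 0.46 (SE, n = 3 against 3, adjusted p = 0.701) and −1.06 ± 0.39 (adjusted p = 1.0), and with the replicate block −1.16 (adjusted p = 0.141) and −1.07 (adjusted p = 0.180), so neither passed. Scaling by library size moved the median of all genes in these 2 comparisons from 0.06 to −0.19 and −0.14. Within replicates 1, 2 and 3 they were −2.31, −1.43 and −0.96 in the Pdgfra gate and −1.80, −1.20 and −0.95 in the Gpr17 gate. In the Enpp6 gate Sox8 was at 170, 318 and 109 CPM in WT cortex and at 69.2, 111 and 74.1 in WT hippocampus, and the groups overlapped. In the Mog gate, at 91.3, 193 and 120 against 122, 171 and 84.1 CPM, the difference was −0.09.

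Zfp488 did not pass between regions in either later gate (adjusted p = 0.998 and 1.0). In the Enpp6 gate it was at 128, 61.2 and 52.4 CPM in WT cortex, on 6, 5 and 12 UMIs, and at 39.1, 30.3 and 26.8 in WT hippocampus (−1.02 ± 0.53). In the Mog gate it was at 12.0, 11.3 and 9.66 CPM in WT cortex and at 18.8, 14.9 and 16.4 in WT hippocampus (0.60 ± 0.34). The WT regions did not overlap in either gate, which held for 1 of 10 members in each and for 8.63% and 5.66% of all genes. In the Enpp6 gate null cortex 2 was at 75.7 CPM and the null hippocampus libraries at 28.5 and 54.7. In the Mog gate null libraries were at 8.44 and 15.5 CPM in cortex and at 12.1 and 20.2 in hippocampus, which overlapped. Whether the regional difference itself changed between the gates was not tested.

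**Figure D3:**
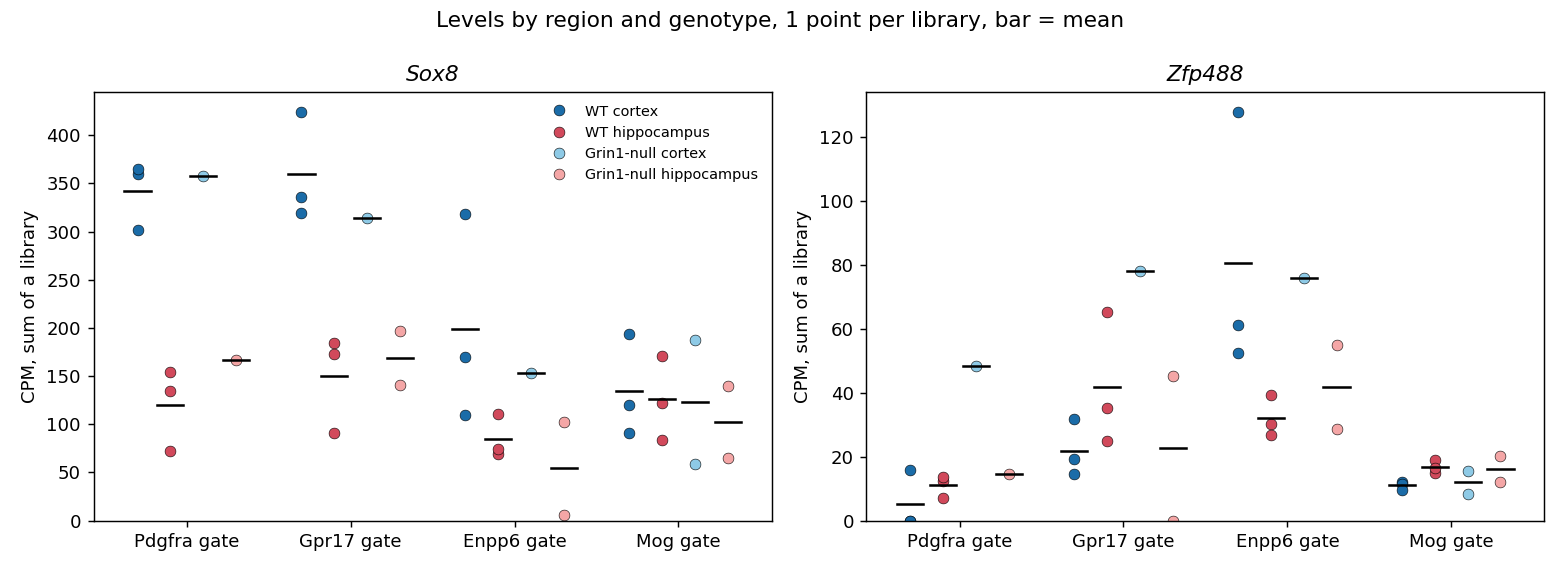
Sox8 and Zfp488 in CPM per library by region and genotype in each gate; points are libraries and bars the mean of a group. Sox8 of the Pdgfra gate lies between 302 and 365 in the WT cortex libraries and between 71.8 and 155 in the WT hippocampus libraries.

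In interneurons 5 members passed the filter on low counts. Of these, Olig1, Sox10, Nkx6-2 and Myrf were higher in every WT hippocampal than in every WT cortical library. Groups did not overlap for 12.5% of all genes. Sox10, Nkx6-2 and Myrf passed the filter only through hippocampal libraries, where they are high, so their values give the size only. No count of members is therefore drawn here. Myrf was at 0.486, 0.554 and 0.202 CPM in cortex and at 3.55, 2.60 and 1.33 in hippocampus (2.55 ± 0.68, with the replicate block 2.52). Olig1 was at 3.24, 0.775 and 1.11 CPM in cortex and at 5.51, 5.93 and 4.0 in hippocampus (1.6 ± 0.52, adjusted p = 0.264). The log2 differences of Sox10 and Nkx6-2 were 2.29 and 1.72. Carry-over of transcripts from oligodendroglia was not tested as a source of these differences. Without the filter on low counts Tcf7l2 passed (4.24), on 29 UMIs in all interneurons.

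Deletion of Grin1 changed 0 members past the threshold in any gate where at least 2 null libraries had enough cells, which were the Gpr17 and Enpp6 gates of hippocampus and the Mog and interneuron gates of both regions. Of all genes edgeR also passed 0 in each of these comparisons. At an unadjusted p under 0.05 there were 242 and 150 genes in the hippocampal Gpr17 and Enpp6 gates, 120 and 152 in the Mog gate of cortex and hippocampus, and 313 and 460 in interneurons of cortex and hippocampus; DESeq2 passed 1 gene in each region's interneurons and 0 elsewhere. The test of a genotype effect that differs between regions passed 0 genes in the Mog gate (28 at an unadjusted p under 0.05) and 0 in interneurons (106), and 0 in both with DESeq2. With the replicate block 35 and 13 genes passed in the hippocampal Gpr17 and Enpp6 gates and 1 and 4 in the Mog gate of cortex and hippocampus; in interneurons 0 genes did in either region, and 0 members did in any gate.

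The members' values by genotype overlapped in most gates. In the Mog gate 0 members were separate between genotypes in either region, where groups did not overlap for 15.7% of genes in cortex and 13.6% in hippocampus, and in the hippocampal Enpp6 gate 0 members were, beside 17.5% of genes. In the hippocampal Gpr17 gate, where groups did not overlap for 20.0% of genes, Sox10 was separate, at 315, 402 and 270 CPM in WT and 161 and 265 in null libraries (−0.68 ± 0.44, adjusted p = 0.999). The median over all genes in this comparison was −0.12, and 0.00 with library size scaling. Tcf7l2 in the same gate was at 495, 893 and 234 CPM in WT and 141 and 349 in null libraries, which overlapped (−1.16 ± 0.54). In interneurons St18 was separate in cortex (1.98 ± 0.55, adjusted p = 0.9998, beside 15.0% of genes) and in hippocampus (0.79 ± 0.64, beside 16.5% of genes). Myrf was lower in null hippocampus without overlap, at 0.994 CPM (2 UMIs) and 1.28 CPM (27 UMIs). WT hippocampus was at 3.55, 2.60 and 1.33 CPM (9, 7 and 9 UMIs). Myrf passed the filter on low counts only through WT hippocampus 1 and 2, where it is highest, so this is a description only. With the replicate block St18 in cortical interneurons was at 2.71 (adjusted p = 0.382) and Tcf7l2 in the Gpr17 gate at −1.46 (adjusted p = 0.0544), and neither passed.

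Over the 46 sums of library and gate, interneurons included, the genes most like each member were found among 9069 genes by Pearson's r of log2(CPM + 1), as a description of points that share libraries and depths. Olig1 was most like Olig2 (0.975), S100a16 (0.968) and Pllp (0.966), and Olig2 like S100a16 (0.980), Olig1 (0.975) and Tgfa (0.970). Sox10 was most like Wipf1 (0.973), S100b (0.973) and Cd9 (0.972), and Sox8 like Wipf1 (0.951), Chd7 (0.95) and Cd9 (0.939). Nkx2-2 was most like 5730559C18Rik (0.966), Gpr17 (0.939) and Rnf144a (0.936), and Nkx6-2 like Tmem63a (0.963) and 5430435G22Rik (0.951). Gpr17 chose the gate in which Nkx2-2 peaked. Myrf was most like Ppp1r16b (0.940), Arhgef10 (0.928) and Llgl1 (0.908), and Zfp488 like Rell1 (0.889), Inppl1 (0.889) and Cat (0.858). Tcf7l2 was most like Lcorl (0.972), Klhl5 (0.962) and Itpr2 (0.962), and St18 like Cdk18 (0.933), Tubb4a (0.923) and Pacs2 (0.913). Between members r ran from 0.287 for Nkx2-2 with Nkx6-2 to 0.975 for Olig1 with Olig2.

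Promoter sequences are shown for Nkx2-2, Nkx6-2, Tcf7l2 and Olig2, to place the letters that basic helix-loop-helix and Sox factors are known to prefer. Of the 10 members 6 matched a RefSeq entry (GRCm38.p6, 250 bases before to 50 after the start), Tcf7l2 with 2 starts; Olig1, Sox10, Myrf and St18 are the others. Capitals mark an E-box (CANNTG, held by 72.3% of all 32851 promoters) or a Sox motif (ACAATG, 12.6%), on either strand. The Tcf/Lef motif CTTTGA (16.0%) was searched too, with 0 matches in the members' entries. Nkx2-2 (chr2:147186353-147186652, − strand) held 3 E-boxes, Nkx6-2 (chr7:139582748-139583047, − strand) 1 E-box, Olig2 (chr16:91225300-91225599, + strand) 1 Sox motif and the upstream start of Tcf7l2 (chr19:55741560-55741859, + strand) 2 Sox motifs. The Nkx2-2 window lies inside the gene span given above, not at its annotated upstream end. A match is a run of letters and no record of binding.
Nkx2-2: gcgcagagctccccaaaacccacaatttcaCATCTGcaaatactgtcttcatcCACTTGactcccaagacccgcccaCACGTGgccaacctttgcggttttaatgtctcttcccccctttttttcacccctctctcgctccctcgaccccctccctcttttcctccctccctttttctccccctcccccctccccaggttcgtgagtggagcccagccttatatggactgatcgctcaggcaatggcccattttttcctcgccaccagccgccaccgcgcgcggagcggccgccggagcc
Nkx6-2: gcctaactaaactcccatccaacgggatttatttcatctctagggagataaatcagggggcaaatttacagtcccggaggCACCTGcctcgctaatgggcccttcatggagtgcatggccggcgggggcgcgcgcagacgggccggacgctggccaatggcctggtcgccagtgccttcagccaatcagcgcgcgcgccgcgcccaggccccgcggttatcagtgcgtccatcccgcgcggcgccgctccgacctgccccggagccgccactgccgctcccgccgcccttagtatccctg
Olig2: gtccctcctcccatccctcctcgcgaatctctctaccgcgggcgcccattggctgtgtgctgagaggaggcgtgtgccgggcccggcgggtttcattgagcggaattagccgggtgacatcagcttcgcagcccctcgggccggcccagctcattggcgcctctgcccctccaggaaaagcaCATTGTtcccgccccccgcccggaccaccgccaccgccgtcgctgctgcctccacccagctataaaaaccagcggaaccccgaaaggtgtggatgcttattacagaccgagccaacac
Tcf7l2: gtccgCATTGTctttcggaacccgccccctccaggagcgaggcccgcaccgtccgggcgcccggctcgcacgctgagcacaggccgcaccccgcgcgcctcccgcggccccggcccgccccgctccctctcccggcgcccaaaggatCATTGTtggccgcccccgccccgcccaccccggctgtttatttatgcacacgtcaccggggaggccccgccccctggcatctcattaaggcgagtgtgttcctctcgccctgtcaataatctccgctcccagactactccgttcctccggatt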

How the data were processed

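The deposited files are 4 matrices of raw UMI counts with gene symbols and cell barcodes, 1 per region and genotype, made by the authors with Cell Ranger (2.1.1 in the submitters' processing notes, 3.0.2 in the matrix headers) against mm10 with extended gene ends. The deposited barcode and feature files hold other values, namely text. Barcode suffixes separate the 10 libraries and were matched to replicate numbers by the cell numbers the study's methods give, 4 libraries of v2 and 6 of v3 chemistry.

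The study's cell filter (from 200 to 6000 genes detected, mitochondrial share below 30%) kept 26201 of 26987 cells. Oligodendroglial gates needed at least 1 UMI of Pdgfra, Gpr17, Enpp6 or Mog and none of Gad1, Gad2, Slc17a7, Aqp4, Csf1r, Cldn5 or Col1a2; 501 cells with tied markers and 2022 with a stage marker and an exclusion gene were left out. Interneurons needed at least 2 UMIs of Gad1 plus Gad2 and none of the other genes. UMIs were summed per library and gate of at least 10 cells and tested with edgeR 4.0.16 (quasi-likelihood, TMM, filterByExpr) in R 4.3.3 on all genes, with Benjamini-Hochberg adjustment. On simulated data, 95 of 100 planted 8-fold and 28 of 100 planted 2-fold changes were recovered from Pdgfra to Gpr17. For region and genotype in the Mog gate 89 to 95 and 2 to 4 of 100 were, so planted 2-fold changes there were mostly missed. The simulated sums had 200 planted genes, a fixed spread for all genes and no library effects. The shares recovered therefore do not carry over to a single member: Grin1 in interneurons ranked as 1 of 13581 genes and did not pass. Stage steps and the contrast with interneurons had library blocks; region and genotype models were fitted per gate. Shares of cells are given with cells thinned to 1000 UMIs beside them; intervals are 95% and cover counting error only, and the limit of a count of 0 is 3 counts. Levels were not compared between genes.

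Alternatives were DESeq2 1.42.0, library size scaling, no filter on low counts, an adjusted p under 0.05, no library blocks or the replicate block, stricter or exclusive gates, gates without exclusion genes, thinned cells, a stricter cell filter, removal of 249 doublets called by Scrublet (scanpy 1.11.5), sums of at least 20 cells, WT libraries alone and leaving out each library. Named genes are the members, gate and cell type markers, Grin1, up to 3 largest rises and falls of each fixed list per step, and the 3 genes most like each member among those with a mean of at least 10 CPM; some of these genes are not reported here. Members and lists were chosen with earlier results of these data known. Gene positions are from GENCODE M21; Lhfpl3 and Zfp24 did not match a symbol. Python 3.11.15, numpy 2.4.6, scipy 1.17.1, pandas 2.3.3 and matplotlib 3.10.9 were used.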

Additional observations from a re-analysis of the deposited data

Results flagged for a closer look

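Cells outside the gates, with at least 2 UMIs of 1 marker and none of the others, held more UMIs of some members than the limit of a count of 0 (3 counts); those with Aqp4, Cldn5 and Slc17a7 were chosen after values were seen. In 238 cells with the astrocyte gene Aqp4, Olig1 was at 95.7 CPM (73 UMIs), Tcf7l2 at 55.1 CPM (42 UMIs), Sox8 at 38.0 CPM (29 UMIs), Olig2 at 13.1 CPM (10 UMIs) and Nkx2-2 at 9.18 CPM (7 UMIs). Sox10 had 0 UMIs in these cells, below a limit of 3.93 CPM. In 183 cells with the microglial gene Csf1r, Tcf7l2 was at 53.5 CPM (14 UMIs). In 79 cells with the endothelial gene Cldn5, Tcf7l2 was at 75.5 CPM (15 UMIs). In 422 cells with the glutamatergic gene Slc17a7, Sox8 was at 5.76 CPM (14 UMIs), St18 at 2.06 CPM (5 UMIs) and Olig1 at 1.64 CPM (4 UMIs). These values are pooled over libraries and were not tested, and carry-over of transcripts from other cells was not tested either.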

How the results depend on the processing

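Each result was refitted under 11 to 13 alternatives and without each of 10 libraries, where a group left with 1 library is taken to vary like the others. None of the members' calls reversed in these. Of 397 values under alternatives 367 kept their direction and their side of the threshold and 30 kept the direction without passing. Of 310 values with 1 library left out, 299 and 11 did so. These counts cover only changes that passed in the main setting. They include members that entered through the gates where they are high, so they are no measure of robustness. Differences that passed only under an alternative, such as Olig1 from Gpr17 to Enpp6, are not in them. From Pdgfra to Gpr17, the count of members lower was 2 with DESeq2, 2 with library size scaling, 0 without library blocks and 0 in gates without exclusion genes. From Gpr17 to Enpp6, 1 was higher without library blocks, 1 was higher in thinned cells and 1 was lower without library blocks. From Enpp6 to Mog, 2 were lower in thinned cells and 2 in exclusive gates. Without the filter on low counts 1 member (St18) was higher in Pvalb than in Sst cells, 1 (St18) in Lamp5 than in Sst cells, and 1 (Tcf7l2) differed by region in interneurons. The cause of these shifts was not tested. With 1 library left out, members higher ranged from 3 to 4 at each of the last 2 steps and members lower from 2 to 4 and 3 to 4. Zfp488 and St18 could not be fitted at the stage steps in thinned cells, where they did not pass the filter on low counts. Sums of at least 20 cells could not be fitted for genotype in the hippocampal Gpr17 gate and the cortical Mog gate nor for the interaction in the Mog gate, and exclusive gates could not be fitted for genotype in the hippocampal Enpp6 gate. Depth limits Nkx6-2 and St18 in the Pdgfra gate, with 1 and 2 UMIs.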

Other observations

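Within the Mog gate, cells were split by genes of mature oligodendrocytes chosen after values were seen: at least 1 UMI of Klk6, at least 5 of Ptgds and none of Klk6, or at least 1 of Opalin and none of both. In 8 libraries with enough of both, 895 Klk6 cells held less Olig1 than 2296 Opalin cells (989 ± 413 against 1490 ± 422 CPM, SD over libraries), less Olig2 (119 against 203 CPM), less Zfp488 (10.1 against 16.8 CPM) and less St18 (60.8 against 79.0 CPM), each lower in 8 of 8 libraries, as were 6.06% of 7245 genes with a mean of at least 10 CPM. Tcf7l2 (12.8 against 29.3 CPM) and Myrf (140 against 173 CPM) were lower in 7 of 8, and Nkx2-2 (27.5 against 16.8 CPM) was higher in 7 of 8. Of all genes compared, 14.6% were lower and 14.4% higher in at least 7 of 8. In 9 libraries, 1090 Ptgds cells held more Nkx6-2 than 2331 Opalin cells (828 ± 148 against 685 ± 98.8 CPM), in 8 of 9, where 4.398% of 7253 genes were higher in at least 8. Klk6, Ptgds and Opalin cells had medians of 6930, 6580.5 and 5666 UMIs.

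In the Pdgfra gate of 6 libraries, 175 cells with a UMI of Mki67, Top2a or Cdk1 were set against 407 cells without, a split chosen after values were seen. Olig1 was at 1678 ± 609 against 2463 ± 1004 CPM, Olig2 at 405 against 584, Sox10 at 196 against 276, Sox8 at 118 against 250 and Nkx2-2 at 60.4 against 105 CPM, each lower in 6 of 6 libraries, as were 5.48% of 9146 genes. Myrf (16.0 against 42.4 CPM) and Zfp488 (2.94 against 15.4 CPM) were lower in 5 of 6 and higher in 0, where 18.8% of genes were lower in at least 5. Tcf7l2, at 81.1 against 89.4 CPM, was lower in 4 of 6. The cycling cells were deeper (median 2513 against 1500 UMIs), and the part of depth was not tested. None of these differences was tested.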
